A study of Mus musculus with 4 samples.

Results

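The genes of uridine salvage and pyrimidine nucleotide synthesis described here were measured in heart muscle cells of mice with pressure overload. They were Uck1, Uck2, Uckl1, Cad, Dhodh, Umps, Ctps, Ctps2, Upp1 and Cmpk1, 10 of the 22322 genes measured. The set was chosen by the difference of Uck2 between TAC and sham libraries, which was among the most even rises in these data, and it was filled up with the enzymes around it. The difference of Uck2 between the groups is therefore given as a description, with no test, and the other 9 genes are read from a fit over all genes. All 10 passed the filter on low counts that left 12499 genes.

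RNA-seq was performed on cardiomyocytes from 2 sham-operated mice and 2 mice after TAC (transverse aortic constriction), in which a narrowed aorta loads the left ventricle with pressure. The mice were male and were operated on at 2 months of age, and their hearts were taken apart 14 weeks after surgery by Langendorff perfusion, in which enzymes pumped through the coronary vessels release single cells. The methods can also be read as hearts from mice 14 weeks old. The strain is not stated in the labels or methods used here, and no transgene is named for either group. Anaesthesia for the operation was with ketamine and xylazine. Each library came from a share of the myocytes of a single heart, so that a library stands for 1 mouse.

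Pyrimidine nucleotides are the building blocks UTP and CTP, which cells need for RNA, for UDP-sugars on the way to glycogen and glycoproteins, and for the CDP-activated precursors of membrane phospholipids. Cells make UMP from small molecules by the de novo route or recover it from uridine by salvage, in which a uridine-cytidine kinase adds the first phosphate. The heart is known to draw on uridine from the blood, and UMP from both routes is then raised to UTP, from which CTP synthase makes CTP.

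Library totals ran from 24237777 to 32118323 counts, spread over 14495 to 14949 genes. The 13 mitochondrial genes took 39.84% to 40.85% of the counts in the sham libraries, 47.42% in TAC 1 and 40.35% in TAC 2. The choice of scaling shifted the differences. Over all tested genes the middle log2 fold change was -0.01 with the TMM factors used throughout, -0.20 when libraries were scaled by total counts and -0.11 by totals without the mitochondrial genes. The 12 cardiomyocyte markers summed to between 84210 and 93330 CPM (counts scaled to a common library size by TMM factors) in the libraries, and none of them was called by edgeR (5 of 12 at an unadjusted p under 0.05). Over all 12499 tested genes, 5.01% were called and 27.5% had an unadjusted p under 0.05. Markers of other heart cells had far lower sums, and none of them was at 0 in all libraries. The endothelial list lay at 787 and 667 CPM in sham and at 377 and 520 CPM in TAC. The fibroblast list lay at 564 and 389 CPM in sham and at 228 and 310 CPM in TAC, and the macrophage list at 135 and 67.8 against 38.0 and 69.2 CPM. All 12 genes of each of these 3 lists had a log2 fold change below 0, and 4, 3 and 0 of them were called lower, with 11, 9 and 5 at an unadjusted p under 0.05. Of the 10 mural cell markers 9 lay below 0, 2 were called lower and 9 had an unadjusted p under 0.05. The mural sums were nevertheless higher in TAC, at 2252 and 2390 CPM in sham and 2423 and 2584 CPM in TAC. That rise was carried by the 1 gene above 0, so the sum does not stand for the list or for the amount of mural cells. In bulk RNA, fewer cells of a type and less RNA per cell cannot be told apart.

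Uck2 (ENSMUSG00000026558), a kinase that phosphorylates uridine and cytidine, lies on the minus strand at chr1:167222883-167285320 of GRCm38 (mm10), with 7 exons in its longest coding transcript. Uck1 (ENSMUSG00000002550, chr2:32255002-32260159, minus strand) is the other enzyme of this kind, and Uckl1 (ENSMUSG00000089917, chr2:181569149-181584892, minus strand) is a longer relative with a kinase domain. Because the 3 genes are related, reads could in principle be shared, and the coding sequences were therefore aligned. Uck2 and Uck1 were identical at 74.1% of 776 aligned bases, and the longest identical run was 34 bases. Uck2 and Uckl1 were identical at 68% of aligned bases, with a longest identical run of 15 bases. One stretch is shown for all 3 genes, from GENCODE M21 on GRCm38, to let the degree of likeness be seen. It is the window in which Uck1 shares most bases with Uck2 among those that lie inside a single exon of each gene and align without a gap, so the longest identical run falls outside it. The sequences are the 60 coding bases at chr1:167234755-167234814 (exon 4 of Uck2), chr2:32258340-32258399 (exon 4 of Uck1) and chr2:181574217-181574276 (exon 5 of Uckl1), all on the minus strand and written 5′ to 3′. Capitals mark, in Uck2, the bases that all 3 genes share and, in Uck1 and Uckl1, the bases that are the same as in Uck2.
Uck2: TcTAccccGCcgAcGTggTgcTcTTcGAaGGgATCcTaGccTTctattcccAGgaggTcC
Uck1: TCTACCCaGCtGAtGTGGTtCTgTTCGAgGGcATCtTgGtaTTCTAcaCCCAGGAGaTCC
Uckl1: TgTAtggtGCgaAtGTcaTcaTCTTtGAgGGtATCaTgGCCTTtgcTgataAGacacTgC
In this window Uck1 shared 46 of 60 bases with Uck2 and Uckl1 shared 31 of 60. The expected counts of all 3 genes were whole numbers in every library. Exons of other annotated genes on the opposite strand cover 150 bases of Uck2 (Gm2453, 2.75%), 459 bases of Uckl1 (Uckl1os, 9.92%) and 4 bases of Uck1 (Pomt1). On the same strand, Uckl1 shares 67 exonic bases (1.45%) with Zfp512b, which had 453 and 419 counts in sham and 250 and 307 in TAC, and reads in that stretch cannot be assigned by strand.

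Uck2 had 1045 and 928 counts in the sham libraries and 2257 and 2004 counts in the TAC libraries. After scaling, these were 33.0 and 32.2 CPM in the sham libraries and 81.0 and 82.0 CPM in the TAC libraries. Both TAC libraries lay far above both sham libraries, and the libraries of a group were almost level, with a ratio of 1.02 within sham and 1.01 within TAC. The mean was 32.6 ± 0.548 CPM (SD, n = 2) in sham and 81.5 ± 0.712 CPM (SD, n = 2) in TAC. The fitted log2 fold change was 1.32 with a standard error of 0.07 and a 95% interval from 1.14 to 1.49, which is a 2.49-fold higher level in TAC. Each TAC library was between 2.45 and 2.54 times each sham library.

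The length-scaled values deposited by the authors, FPKM (fragments scaled by transcript length and library size), gave a smaller difference for Uck2. They were 14.3 and 12.4 in sham and 26.4 and 30.4 in TAC, with a log2 ratio of the means of 1.08. The groups again did not overlap, but the libraries within each group stood further apart than in CPM. Scaling the counts by library totals put the log2 fold change of Uck2 at 1.13, and totals without the mitochondrial genes put it at 1.22. Over 13 other settings it ran from 1.13 to 1.34.

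The fold change of Uck2 divided by its standard error was 17.6, which ranked it first among all tested genes, ahead of Synpo2l at 15.6. It was also first under 4 of 13 other settings (totals without mitochondrial genes, RLE size factors, limma-voom and a mean of at least 1 CPM), but not under the rest. The rank was 13 with total counts, 4 with DESeq2 (run on 16015 genes, without the low-count filter) and 6 with the replicate number as a block, and with 1 library left out it lay between 3 and 11. This order describes the values that chose the genes and supports nothing further.

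**Figure D1:**
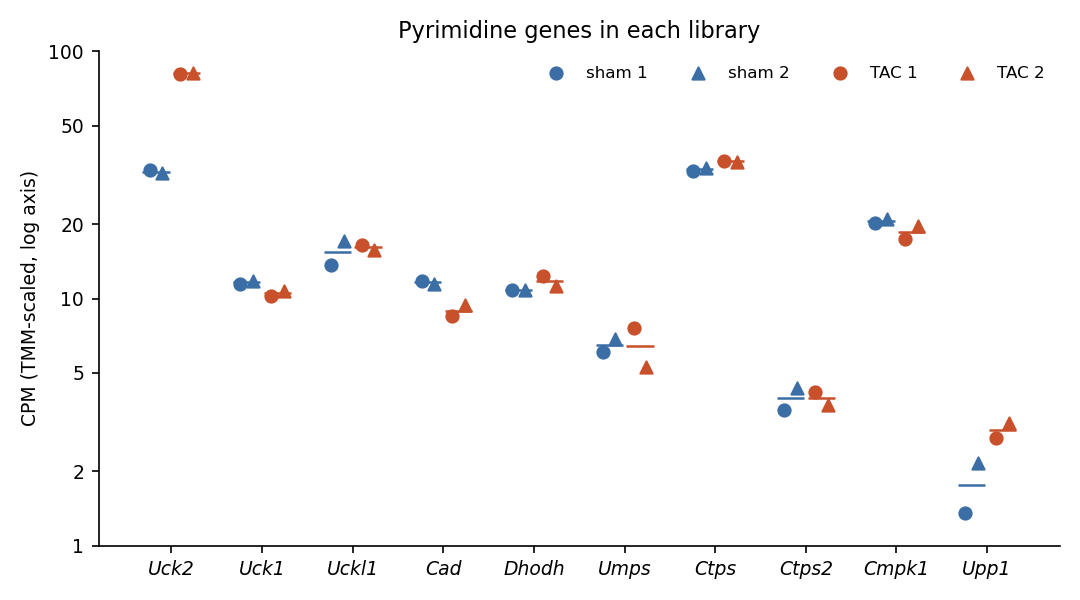
CPM after TMM scaling (log axis) of the 10 genes in each library, with sham in blue, TAC in orange, circles for replicate 1, triangles for replicate 2 and horizontal lines for group means. Uck2 lay at 33.0 and 32.2 CPM in sham and at 81.0 and 82.0 CPM in TAC, while the points of the other 9 genes lay closer together.

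Neither of the other kinases of the family was called. Uck1 had 364 and 340 counts in sham and 286 and 262 in TAC, or 11.5, 11.8, 10.3 and 10.7 CPM. The TAC values were a little below those of both sham libraries. Its log2 fold change was -0.15 ± 0.12 (SE), with an edgeR adjusted p of 0.434 and a 95% interval from -0.43 to 0.13. Uckl1 had 433 and 494 counts in sham and 459 and 386 in TAC, or 13.7, 17.2, 16.5 and 15.8 CPM. Its groups overlapped, with the widest gap between the sham libraries. The log2 fold change of Uckl1 was 0.07 ± 0.13 (SE), with an edgeR adjusted p of 0.783 and an interval from -0.25 to 0.38. The difference between these genes and Uck2 was not tested, since Uck2 chose the set.

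Uck2 took a different share of the family's counts in the groups. It made up 56.7% of the counts of the 3 kinases in sham 1 (95% Wilson interval 54.5% to 59%) and 52.7% in the other sham library (50.3% to 55%). In TAC the share was 75.2% in replicate 1 (73.6% to 76.7%) and 75.6% in replicate 2 (73.9% to 77.2%). These intervals cover counting error only. By deposited FPKM, which allows for length, the shares were 48.9% and 43.6% in sham and 67.2% and 67.9% in TAC. The ratio of Uck2 to Uck1 counts, which no scaling of the libraries can change, was 2.87 and 2.73 in sham and 7.89 and 7.65 in TAC. For Uck2 over Uckl1 it was 2.41 and 1.88 in sham and 4.92 and 5.19 in TAC. As these shares and ratios hold the values that chose the set, no test is given for them.

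**Figure D2:**
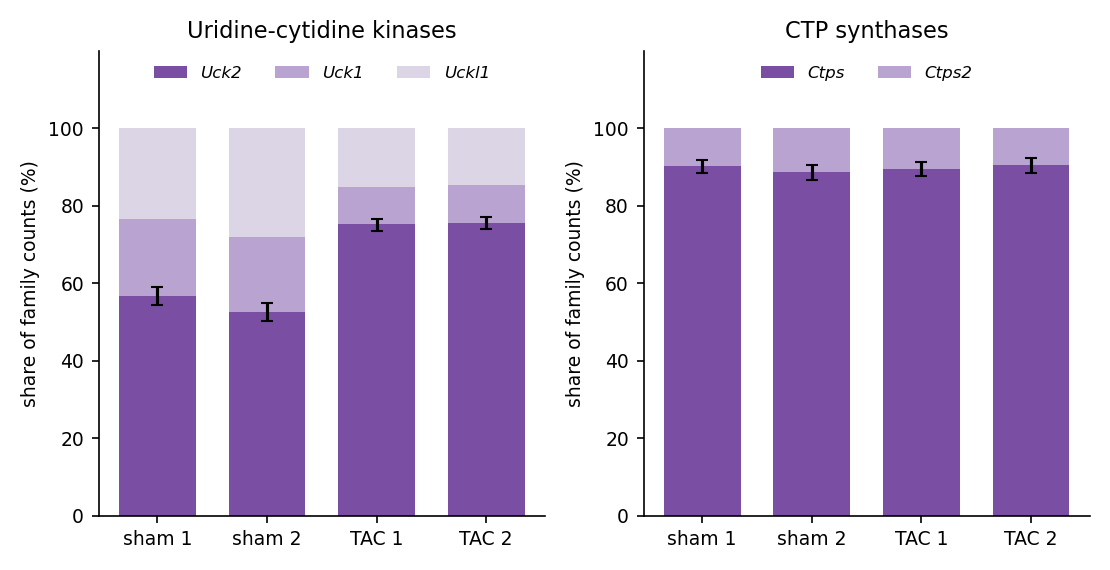
Share of the counts of each family (%, stacked bars) by library, for the uridine-cytidine kinases on the left and the CTP synthases on the right, with 95% Wilson intervals on the lowest segment. The Uck2 segment grew from 56.7% and 52.7% in sham to 75.2% and 75.6% in TAC, and the Ctps segment stayed between 88.6% and 90.6%.

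None of the 9 genes other than Uck2 was called at an edgeR Benjamini-Hochberg adjusted p under 0.05, beside 5.01% of all 12499 genes tested (626 genes, of which 322 were higher and 304 lower in TAC). DESeq2 and limma-voom also called 0 of the 9. At an unadjusted p under 0.05 there were 2, Cad and Upp1, that is, 2 of 9 beside 27.5% of all tested genes. The median log2 fold change of the 9 genes was 0.01, with 5 above 0 and 4 below, against a median of -0.01 over all tested genes. In 3 of the 9 genes both TAC libraries lay above both sham libraries, in 3 both lay below, and in 3 the groups overlapped, where groups did not overlap for 60.1% of all tested genes. That share of the 9 genes is close to the background.

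The de novo route makes UMP through Cad, Dhodh and Umps. Cad (ENSMUSG00000013629, chr5:31054780-31078479, plus strand, 44 exons) encodes the large enzyme that performs the opening steps of the route and its committed reaction. Its counts were 373 and 330 in sham and 236 and 230 in TAC, or 11.8 and 11.5 against 8.46 and 9.41 CPM. Both TAC libraries lay below both sham libraries. The log2 fold change of Cad was -0.38 ± 0.13 (SE), with a 95% interval from -0.68 to -0.08, an unadjusted p of 0.0196 and an adjusted p of 0.115 (edgeR), so it was not called. Across the alternatives it ran from -0.57 to -0.31 and was below 0 in each, with adjusted p from 0.0666 to 0.371. In deposited FPKM, Cad lay at 3.88 and 3.87 in sham and at 3.19 and 2.15 in TAC. The order of the TAC libraries was the reverse of that in CPM. The length implied by count and FPKM for Cad was 2303 bases in TAC 1 and 4414 in TAC 2, a 1.92-fold range over the libraries, so the FPKM of this gene did not rest on a single length.

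Dhodh (ENSMUSG00000031730, chr8:109591343-109608673) encodes the enzyme of the inner mitochondrial membrane that oxidizes dihydroorotate to orotate and passes the electrons to the respiratory chain. It had 343 and 311 counts in sham and 344 and 275 in TAC, or 10.8 and 10.8 against 12.3 and 11.2 CPM. Both TAC libraries lay slightly above the sham libraries, with a log2 fold change of 0.12 ± 0.12 (SE) and an edgeR adjusted p of 0.539. With total counts the sign turned, to -0.07. Umps (ENSMUSG00000022814, chr16:33954782-33967038) encodes the enzyme that turns orotate into UMP. Its values were 6.07 and 6.88 CPM in sham and 7.60 and 5.28 CPM in TAC. The TAC libraries enclosed the sham libraries, and the log2 fold change of Umps was -0.002 ± 0.205 (SE), with an interval from -0.48 to 0.48. An annotated gene on the opposite strand, Gm15829, covers 213 exonic bases of Umps (6.11%), and whether counting used strand is not stated in the labels or methods.

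CTP is made from UTP by Ctps and Ctps2. Ctps (ENSMUSG00000028633, chr4:120539868-120570276) had 1039 and 973 counts in sham and 1005 and 872 in TAC. In CPM these were 32.8 and 33.8 against 36.0 and 35.7. The TAC values were above the sham values, but the gap was small. Ctps had a log2 fold change of 0.11 ± 0.08 (SE), its interval ran from -0.08 to 0.29, and the edgeR adjusted p was 0.423. It turned to -0.08 with total counts. Ctps2 (ENSMUSG00000031360, chrX:162901238-163032508) had 3.54 and 4.34 CPM in sham and 4.20 and 3.72 CPM in TAC, with overlapping groups and a log2 fold change of 0.01 ± 0.20 (SE). The coding sequences of this pair were identical at 69.9% of aligned bases. Ctps took 90.3% and 88.6% of the counts of the pair in sham and 89.6% and 90.6% in TAC, and these shares overlapped between the groups.

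Cmpk1 (ENSMUSG00000028719, chr4:114959336-114987241) encodes the kinase that carries UMP and CMP from either route to the diphosphates. It had 638 and 601 counts in sham and 487 and 482 in TAC, or 20.2 and 20.9 against 17.5 and 19.7 CPM. Both TAC libraries lay below both sham libraries, and TAC 2 was near the sham level. Cmpk1 had a log2 fold change of -0.14 ± 0.11 (SE), with an edgeR adjusted p of 0.406, and it was below 0 in all 13 alternatives.

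Upp1 (ENSMUSG00000020407, chr11:9118103-9136170) encodes uridine phosphorylase, which splits uridine into uracil and ribose 1-phosphate and so competes with the kinases for it. It was the scarcest of the 10 genes in counts, with 43 and 62 in sham and 76 and 77 in TAC, or 1.36 and 2.15 against 2.73 and 3.15 CPM. Both TAC libraries lay above both sham libraries, and the sham libraries differed from each other by 1.59-fold. The log2 fold change of Upp1 was 0.74 ± 0.30 (SE), with a wide interval from 0.05 to 1.44, an unadjusted p of 0.0394 and an adjusted p of 0.162 (edgeR). It was above 0 in all 13 alternatives, but it was 0.44 without sham 1 and 1.11 without sham 2. In deposited FPKM the groups of Upp1 overlapped, at 1.32 and 2.37 in sham and 1.93 and 3.12 in TAC. A difference as large as that of Uck2 lies inside the interval of Upp1 and a difference near 0 just outside it, so the size of its difference was not resolved with these libraries.

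**Figure D3:**
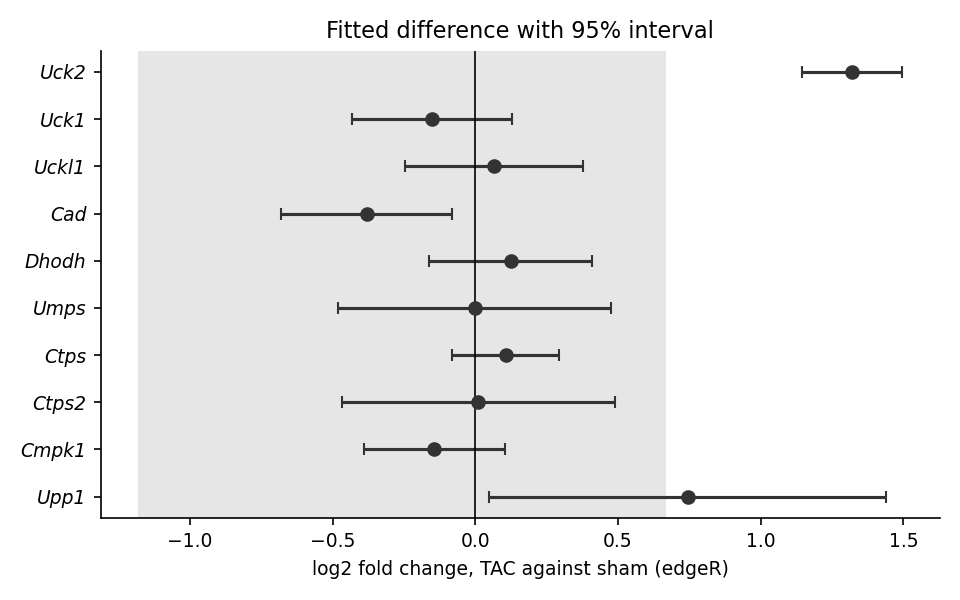
Fitted log2 fold change of TAC against sham (points) with 95% intervals (bars) for the 10 genes, over a grey band that holds the middle 95% of all tested genes (-1.18 to 0.66). Uck2 at 1.32 chose the set and is shown as a description, and the points of the other genes lay between -0.38 (Cad) and 0.74 (Upp1).

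Levels of different genes can be set beside each other only per length, and the deposited FPKM were used for this. In sham, Uck2 (13.4 ± 1.37, SD, n = 2) and Ctps (13.2 ± 0.226) were the most abundant of the 10 genes and their libraries overlapped. Below them came Uckl1 (9.21), Cmpk1 (7.30), Uck1 (6.30), Dhodh (5.71), Cad (3.88) and Ctps2 (2.85), whose libraries did not overlap between neighbours. Umps (1.99) and Upp1 (1.84) were lowest and overlapped. In TAC, Uck2 stood alone at 28.4 ± 2.83 (SD, n = 2), above Ctps at 12.4 ± 1.22 and Uckl1 at 8.59. Cmpk1 (5.89), Dhodh (5.77) and Uck1 (5.07) then overlapped as neighbours, as did Cad (2.67), Ctps2 (2.65) and Upp1 (2.52), with Umps at 1.71 below them. The place of Uck2 in sham depends on the length it is divided by. The FPKM imply a length of 2526 to 2717 bases for Uck2, whereas its longest coding transcript in GENCODE M21 has 4731 bases. Per kilobase of that transcript Uck2 lay at 6.90 CPM in sham and 17.2 in TAC, against 12.3 and 13.3 for Ctps and 8.34 and 8.72 for Uckl1, so that on this length Uck2 was below both in sham. On either length Uck2 was the most abundant of the 10 genes in TAC. The order of the scarcest genes depends on the length as well. Per kilobase of the longest coding transcript, Umps lay at 1.86 CPM in sham, Cad at 1.63, Upp1 at 1.38 and Ctps2 at 1.18. In TAC these were 1.85, 1.25, 2.30 and 1.18, so that on this length Ctps2 was lowest in both groups.

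Around these genes stand the enzymes that use, recycle and carry pyrimidines. Of 52 such genes listed, 43 were tested, and 3 were called higher and 1 lower in TAC (9.3% of those tested, beside 5.01% of all genes). At an unadjusted p under 0.05 there were 8 of the 43, beside 27.5% of all genes. Their median log2 fold change was -0.01, with 21 above 0 and 22 below. The 3 that rose were Nt5c2, Slc25a36 and Ugp2. Nt5c2 is a cytosolic nucleotidase that removes phosphate from nucleoside monophosphates, those of purines included, so it is not specific to pyrimidines. It had 34.9 and 29.7 CPM in sham and 50.5 and 48.5 CPM in TAC. Both TAC values lay above both sham values, with a log2 fold change of 0.61 ± 0.10 (SE) and an edgeR adjusted p of 0.0214. With total counts the Nt5c2 call was lost (0.42, adjusted p 0.112).

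Slc25a36, a carrier of pyrimidine nucleotides across the inner mitochondrial membrane, had 43.9 and 40.1 CPM in sham and 80.7 and 60.5 CPM in TAC. The TAC libraries differed by 1.33-fold but both exceeded sham, with a log2 fold change of 0.75 ± 0.14 (SE) and an edgeR adjusted p of 0.0282. Ugp2, which joins UTP and glucose 1-phosphate into UDP-glucose for glycogen synthesis, was among the most abundant genes of the list. It had 297 and 357 CPM in sham and 523 and 438 CPM in TAC. Both TAC libraries of Ugp2 were higher, with a log2 fold change of 0.56 ± 0.12 (SE) and an edgeR adjusted p of 0.0454. That call was near the threshold and was lost with total counts (adjusted p 0.104), with totals without mitochondrial genes (0.0545), without sham 1 (0.0647) and without TAC 1 (0.124).

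Slc28a2, a sodium-coupled transporter that carries uridine and purine nucleosides into cells, was the gene called lower. It had 600 and 438 counts in sham and 259 and 223 in TAC, or 19.0 and 15.2 against 9.29 and 9.12 CPM. Both TAC libraries were well below sham, with a log2 fold change of -0.89 ± 0.14 (SE) and an edgeR adjusted p of 0.02. Its expected counts were not whole in every library, as happens where reads are divided between similar genes, and its level is uncertain to that extent. The endothelial and fibroblast marker sums were lower in TAC as well (787 and 667 against 377 and 520 CPM for the endothelial list), and their part in the difference of Slc28a2 was not tested. The log2 fold changes of the other 3 transporters tested were -0.04 (Slc29a2), -0.11 (Slc29a1) and -0.28 (Slc29a3), and none was called. Slc29a1, the equilibrative nucleoside transporter that was most abundant among them, lay at 45.7 and 42.6 CPM in sham and 39.2 and 42.5 CPM in TAC, with a log2 fold change of -0.11 ± 0.09 (SE) and an adjusted p of 0.422 (edgeR).

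None of the other genes of the pyrimidine list was called by edgeR. Of the 8 nucleotide kinases tested, Nme2, a nucleoside diphosphate kinase that makes UTP and CTP from their diphosphates, was the most abundant. Its expected counts were not whole, as with Slc28a2. Nme2 had 155 and 161 CPM in sham and 191 and 210 CPM in TAC, with both TAC libraries higher. The log2 fold change of Nme2 was 0.35 ± 0.08 (SE) and the edgeR adjusted p was 0.0509, just short of the threshold. Nme2 was called by DESeq2 (adjusted p 0.00903), by limma-voom (0.0478), without the low-count filter (0.0141) and with a crossed pairing of the libraries as a block, chosen after seeing the data (0.0187). It was not called with total counts (log2 fold change 0.16, adjusted p 0.507), with totals without mitochondrial genes (0.25, adjusted p 0.102), with the replicate number as a block (0.34, adjusted p 0.0758) or with 1 library left out (0.28 to 0.41, adjusted p 0.0637 to 0.137). The 8 genes of deoxynucleotide synthesis ran from -0.18 to 0.34, and Dut, which removes dUTP, was at -0.09 ± 0.16 (adjusted p 0.766). Pcyt1a, which uses CTP to make the CDP-choline of membrane lipids, lay at 102 and 118 CPM in sham and 113 and 107 CPM in TAC, with a log2 fold change of -0.01 ± 0.09. Tk2, the mitochondrial thymidine kinase, was at -0.31 ± 0.17 (adjusted p 0.29). Dpyd, which opens uracil breakdown, was at -0.09 ± 0.13 (adjusted p 0.686), and the nucleotidase Nt5c3 was at 0.13 ± 0.08 (adjusted p 0.308). Tymp, a phosphorylase of thymidine, had 40, 46, 44 and 15 counts in sham 1, sham 2, TAC 1 and TAC 2, too few to place its difference (-0.37 ± 0.46). Dpys and Slc28a3 had no count in any library.

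Purine synthesis served as a neighbouring pathway. Of 23 genes listed, 19 were tested, and none was called higher and 2 lower (10.5%, beside 5.01% of all tested genes). At an unadjusted edgeR p under 0.05 there were 9 of the 19, beside 27.5% of all tested genes. The median log2 fold change of the 19 was 0.04. Prps2, which makes the phosphoribosyl pyrophosphate used by both purine and pyrimidine synthesis, had 13.4 and 12.8 CPM in sham and 7.89 and 8.06 CPM in TAC. Its libraries were tight and the groups apart, with a log2 fold change of -0.72 ± 0.12 (SE) and an edgeR adjusted p of 0.026. Ppat, the enzyme of the committed step of purine synthesis, had 17.7 and 24.4 CPM in sham and 11.4 and 12.1 CPM in TAC, with a log2 fold change of -0.84 ± 0.16 (SE) and an edgeR adjusted p of 0.0352. Without TAC 1 both purine calls were lost, at adjusted p 0.0694 for Prps2 and 0.0891 for Ppat, while the log2 fold changes stayed at -0.70 and -0.80. Without sham 2 the Ppat call was lost at an adjusted p of 0.0522, with a log2 fold change of -0.58.

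**Figure D4:**
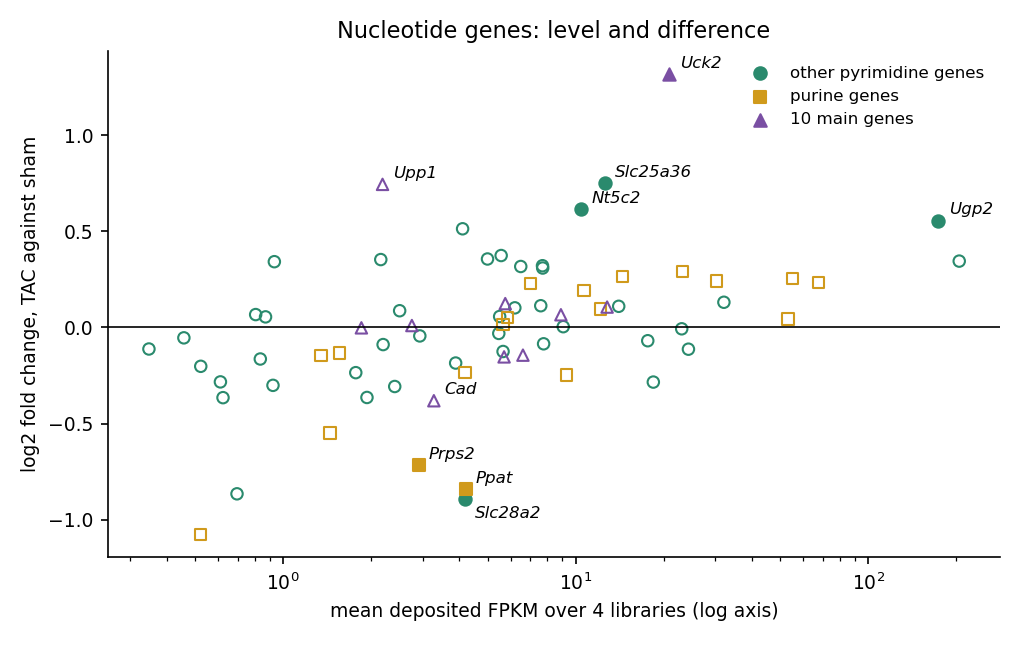
Log2 fold change of TAC against sham by mean deposited FPKM over the 4 libraries (log axis) for the 10 main genes (triangles), the 43 other pyrimidine genes (circles) and the 19 purine genes (squares) that were tested, with filled symbols for those under an edgeR adjusted p of 0.05. Uck2 stood at 1.32, followed by Slc25a36 at 0.75 and Upp1 at 0.74, and Slc28a2 at -0.89 and Ppat at -0.84 were the lowest of the called genes. Uck2 chose the set, so its filled symbol is a description and not a test.

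The 5 genes whose pattern over the 4 libraries was most like that of Uck2 were Dct, Tgfb2, Synpo2l, Tubb2a and Cnksr1. Likeness was the Euclidean distance between log2 CPM centred on each gene's mean, among tested genes averaging at least 5 CPM. With libraries of a group nearly level, this distance mostly reflects the group difference, which is the value that chose Uck2. The log2 fold changes of the 5 ran from 1.16 (Synpo2l) to 1.49 (Cnksr1), and shared regulation with Uck2 was not tested. Dct, a dopachrome tautomerase of melanin synthesis, was nearest at a distance of 0.10, with 4.49 and 4.45 CPM in sham and 10.5 and 11.7 CPM in TAC. Tgfb2, a transforming growth factor beta ligand, followed at 0.13, with 6.64 and 7.09 CPM in sham and 16.1 and 16.2 CPM in TAC. Synpo2l, an actin-associated protein of the heart muscle Z-disc, lay at 0.18, with 132 and 131 CPM in sham and 303 and 283 CPM in TAC. Tubb2a, a beta-tubulin, and Cnksr1, a scaffold protein of Ras signalling, lay at 0.20 each.

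The proliferation list, 12 genes of dividing cells, summed to 42.5 and 34.3 CPM in sham and to 41.5 and 39.5 CPM in TAC, and none of its 11 tested genes was called by edgeR, with 0 at an unadjusted p under 0.05 (5.01% and 27.5% of all tested genes). The part of dividing cells, and of the endothelial, fibroblast and macrophage markers whose sums are given above, in the difference of Uck2 was not tested.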

How the data were processed

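RNA-seq was performed by the authors on 4 libraries, with groups read from the sample titles. The authors deposited, for each gene, an expected count, which can be fractional, and an FPKM value. The submitters' processing notes name Bowtie2 2.2.8, StringTie 1.3.1 and mm10, without saying which step each served, and the counting program and strand use are not stated in the labels or methods. Expected counts were rounded, filtered with filterByExpr, scaled by TMM and tested in R 4.3.3 with edgeR 4.0.16 (glmQLFit and glmQLFTest, no block), with Benjamini-Hochberg adjustment over 12499 genes. Genes were called at an adjusted p under 0.05. The standard error is the log2 fold change divided by the square root of F. DESeq2 1.42.0, limma 3.58.1 and total-count scaling, which the study used, were alternatives, and the fit was tested on simulated data. Exact permutation of 2 against 2 libraries gives at best p = 0.333 for any gene, and p-values rest on the spread pooled over genes. As a check for duplicated libraries, those of a group were compared, and they differed by more than counting noise (chi-square per degree of freedom 9.19 for sham and 31.3 for TAC).

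The members and lists were chosen with earlier results of these data known. Named genes were the 10 members, the called genes of the other pyrimidine and purine lists, the most abundant gene of each role, and the 5 genes most like Uck2 in pattern. Gene positions and sequences came from GENCODE M21 (GRCm38).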

Additional observations from a re-analysis of the deposited data

How the results depend on the processing

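Of the called genes named in the text, none changed direction under the alternatives run. Of the 9 genes other than Uck2, 0 were called under each of the 13 alternatives, and 2 lay under an unadjusted p of 0.05 (27.5% of all tested genes did), a count added after seeing the data. The signs of Uckl1, Dhodh, Ctps, Umps and Ctps2, none of them called, changed with the setting. The log2 fold change of Uck2 was 1.13 with total counts and 1.22 with totals without mitochondrial genes. Over all genes 626 were called, against 1676 with no low-count filter, 883 with DESeq2, which was run without that filter on 16015 genes, and between 301 (without TAC 1) and 1336 (without TAC 2) with 1 library left out. Those fits leave 1 library in a group, which is assumed to vary like the other group. Of the other pyrimidine genes 2 were called with total counts instead of 4. Of the purine genes between 0 (without TAC 1) and 3 were called with 1 library left out. Over the single named genes 352 values kept their side of the threshold, 8 fell short of it and 4 passed it.

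The methods speak of pairs of sham and TAC mice, but neither they nor the labels say that a replicate number marks a pair. The deviations of same-numbered libraries were weakly correlated over genes (-0.24), and a crossed pairing gives the same value with the opposite sign. That value therefore does not decide on pairing. The libraries were treated as unpaired, and whether they were processed in pairs was not tested. With the replicate number as a block 566 genes were called over all genes, 4 in the other pyrimidine list, 2 in the purine list and 0 of the 9. With the crossed pairing, chosen after seeing the data, 2131 genes were called in all and 6 in the purine list.

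Among the named genes with few counts, standard errors were 0.30 for Upp1, 0.46 for Tymp and 0.20 for both Ctps2 and Umps. Counting error and the spread between mice were not separated.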
